A study of Mus musculus with 3 samples.

Results

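Cells keep reactive oxygen in check with a set of enzymes that make and recycle glutathione, remove peroxides and superoxide, and pass electrons through thioredoxin. A list of 46 genes of these systems, with NRF2 (the gene Nfe2l2) and genes of its response, was followed in RNA-seq tables of mouse cells. The genes were chosen by name from glutathione metabolism, the thioredoxin system, peroxide removal and the NRF2 response. Each of the 46 was found by its symbol among the 29267 genes in the tables, and all are protein-coding, on 16 chromosomes. Aldh3a1 was put on the list because its counts in 1 library were already known, so its values are given as a description and not as a test. The list bears on a study of reprogramming in which retinoic acid and a stable salt of ascorbate, an antioxidant, were given to fibroblasts. The treated cells were not analysed here.

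The 3 libraries came from 3 sources of cells, whose labels name no treatment. Mouse embryonic fibroblasts (MEFs), the starting cells of reprogramming, were of 2 strains at passages 3 to 5, ICR and OG2, the latter with an Oct4-GFP reporter transgene. Embryonic stem cells (ESCs) were of the R1 line, a single line at passage 30, and were labelled naive. Each source gave 1 library. The labels do not say how many embryos or cultures stand behind a MEF library, so the spread between the MEF samples holds their strain difference and may otherwise be technical.

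NRF2 is a transcription factor that is held low by KEAP1, which delivers it for degradation. When electrophiles or oxidants modify KEAP1, NRF2 accumulates, pairs with small MAF proteins and binds antioxidant response elements near genes of glutathione synthesis, quinone reduction and heme breakdown. Glutathione is made from cysteine, glutamate and glycine, serves as the electron donor of glutathione peroxidases and transferases, and is reduced again by glutathione reductase with NADPH. Thioredoxins and peroxiredoxins form a parallel system, which also draws on NADPH.

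The core of the antioxidant response element, TGACNNNGC, was searched on both strands and found in the 250 bases before a RefSeq start in 10 of the 39 listed genes that had a promoter in RefSeq (GRCm38.p6). This is 25.6% of them, against 11.5% of 27025 genes with a promoter. The list was chosen in part from the NRF2 response, so the share is a description and not a test. Elements farther than 250 bases from a start were not searched. The element was found in 3 of 13 such genes that stood higher in the ESC-labelled library than in both MEF samples, in 3 of 10 that stood lower and in 4 of 16 that did neither. The 6 matches of the higher and lower genes are shown with 10 bases on each side, read in the direction of the gene. Capitals mark the core, which reads as its reverse complement where it lies on the opposite strand.
Nfe2l2: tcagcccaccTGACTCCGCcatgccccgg
G6pdx: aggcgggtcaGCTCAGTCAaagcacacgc
Gclm: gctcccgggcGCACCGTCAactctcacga
Mt2: aaagggggtgTGACTCAGCgcggggggtg
Sod1: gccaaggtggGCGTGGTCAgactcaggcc
Gsta3: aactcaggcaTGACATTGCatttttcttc
On GRCm38.p6 the core of Nfe2l2 lies on chromosome 2 from 75704895 to 75704903, that of G6pdx on chromosome X from 74428929 to 74428937, and that of Gclm on chromosome 3 from 122245423 to 122245431. Those of the higher genes lie on chromosome 8 from 94172539 to 94172547 for Mt2, on chromosome 16 from 90220706 to 90220714 for Sod1 and on chromosome 1 from 21240464 to 21240472 for Gsta3. Gstm5, Mgst1, Prdx1 and Txnrd1 also held the core and belong to the genes that stood neither higher nor lower by this threshold. The core overlaps the AP-1 motif TGACTCA, which the matches of Mt2 and Prdx1 contain in full. A match is a run of letters and not a bound site, and these positions were read from the sequence alone.

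The libraries differed in depth and in kind before any listed gene was considered. The tables sum to 5149297 rounded counts in OG2 MEFs and 4590599 in ICR MEFs, against 1717798 in the ESC-labelled library, so 3 counts, taken as the smallest detectable number, equal 0.532, 0.580 and 2.15 CPM, which are counts per 1000000 counts, after TMM scaling. Fibroblast markers summed to 25606 and 25841 CPM in the MEF samples and to 3855 CPM in the ESC-labelled library, where none of the 10 was at 0. Of 15 markers of pluripotent cells, 7 were at 0 in the ESC-labelled library (Zfp42, Esrrb, Dppa5a, Utf1, Dppa3, Dppa4 and Lin28a). Of the 10 with a count in any library, 7 exceeded both MEF samples by 1 log2 unit or more, led by Pou5f1 with 71 counts, Nanog with 51 and Sox2 with 32. The 15 summed to 142 CPM there, against 12.8 and 19.9 in MEFs. The 10 markers of squamous and corneal epithelium summed to 348 CPM there and to 1.42 and 3.10 in MEFs, most of it from Krt14 with 414 counts, while Krt5, Krt4, Trp63 and Ivl were at 0. Krt8, of simple epithelium, had 177 counts, Krt19 110, Krt18 23 and Epcam 11, while Cldn7 had 3, Cdh1 2 and Cldn4 0. Hba-a1, a hemoglobin gene, had 45. The other erythroid and hepatic markers were at 0 (Hbb-bt, Hbb-bs, Alb and Apoa1) or at 1 count (Alas2 and Ttr). Rpsa alone took 6.03% of the counts, against 0.287% and 0.259% in MEFs, and the 15 highest genes took 18.3%, against 9.88% and 9.20%. The markers go against the label in part, what the library holds was not tested, and it is called the ESC-labelled library throughout. Its differences also followed transcript length, with a Spearman's rho of -0.356 between log2 difference and length across 12094 protein-coding genes of at least 10 counts, as a description. The part of markers, length and depth in the differences below was not tested. In bulk RNA, fewer cells of a type and less RNA per cell cannot be told apart.

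Of the 46 genes, 16 were at least 1 log2 unit higher in the ESC-labelled library than in both MEF samples and 12 were at least 1 log2 unit lower, on the log2(CPM + 1) scale. The higher genes are 34.8% of the list (15 of 45 without Aldh3a1, or 33.3%), against 21.9% of all 17810 genes with a count, and the lower genes are 26.1%, against 25.9%. The higher genes were Aldh3a1, the metallothioneins Mt1 and Mt2, 6 glutathione transferases (Gstp1, Gstm1, Mgst3, Gsta4, Gsta1 and Gsta3), Sod1, Gpx4, Gpx1, Prdx2, Prdx5, Gsr and Txnrd2. The lower genes were Nfe2l2 itself, Hmox1, Srxn1, G6pdx, Gclc, Gclm, Slc7a11, Glrx, Txnip, Prdx3, Gpx8 and Cat. The median difference of the list was 0.70 log2 units, and that of all genes with a count was -0.13. Of the 17810 genes, 12663 had enough counts for the edgeR test given below, as did 44 of the 46 listed genes. Among these 12663 genes, 3015 were higher and 4524 lower by the same threshold, with a median of -0.41. The scale understates the change of low genes, and the 21.9% and 25.9% used below are over all 17810. The listed genes together took 0.503% of the counts of OG2 MEFs and 0.490% of ICR MEFs, and 1.00% of those of the ESC-labelled library. Of the summed TPM, which is per length, they took 0.954%, 0.979% and 1.23% in the same order.

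**Figure D1:**
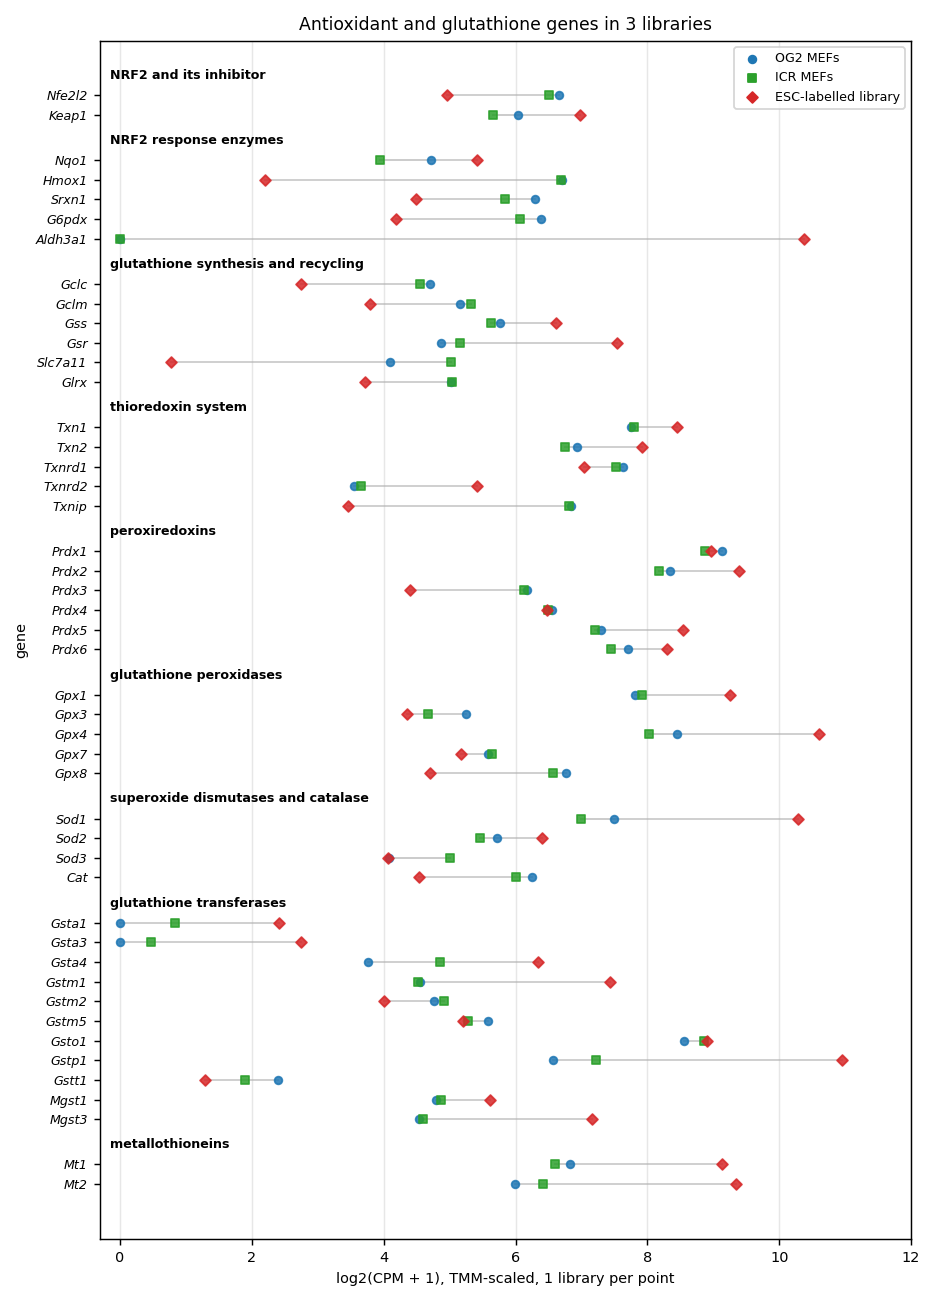
Level of each of the 46 genes in each library, as log2(CPM + 1) after TMM scaling on the x axis, with 1 point per library and a line joining the 3 points of a gene. The MEF points of most genes lie close together, while the point of the ESC-labelled library lies far to the right for Aldh3a1, Gstp1 and Sod1 and far to the left for Hmox1, Slc7a11 and Txnip.

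The quasi-likelihood test of edgeR, adjusted by the Benjamini-Hochberg method over 12663 genes, could be run on 44 of the 46, since Gsta1 and Gsta3 had too few counts. At an adjusted p under 0.05 it called 12 of these 44 lower (27.3%, against 36.0% of all tested genes). Leaving out Aldh3a1, 21 of 43 were called higher (48.8%, against 31.4% of all tested genes). With Aldh3a1, whose listing used its value, the number called is 22. The 12 lower genes were those named above. Keap1, Nqo1, Gss, Txn1, Txn2, Prdx6, Sod2 and Mgst1 were called higher without standing 1 log2 unit above both MEF samples. Of the 22, 12 had a negative difference on at least 1 of 4 other scales given further below (median-of-ratios size factors, TPM, and centring by length or by GC content and length), namely Keap1, Nqo1, Gss, Txn1, Txn2, Prdx2, Prdx5, Prdx6, Gpx1, Sod2, Mgst1 and Mt1. None of the 12 lower genes turned on these scales. Keap1, Nqo1, Gss, Prdx6 and Sod2 were negative on the TPM scale alone. TPM moved the median of all genes with at least 10 counts by -1.11 log2 units, toward negative values. On that scale the contrast therefore cannot be read as a greater stability of the lower genes. No call was made for Txnrd1, Prdx1, Prdx4, Gpx3, Gpx7, Sod3, Gstm2, Gstm5, Gsto1 and Gstt1. The test had 1 residual degree of freedom, its spread came from the MEF pair alone, and the ESC-labelled library had no replicate, so its p-values do not carry the spread of that library.

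Nfe2l2, which encodes NRF2 (chromosome 2 of GRCm38, 75675513 to 75704641), stood at 100 CPM in OG2 MEFs and 90.4 in ICR MEFs, against 30.1 in the ESC-labelled library. Both MEF samples were high and the ESC-labelled library was low, with 42 counts behind its value. The log2 difference was -1.63 and the edgeR adjusted p 0.000239. Keap1, whose protein holds NRF2 low, was called higher, with 64.8, 49.7 and 125 CPM in the same order. Its log2 difference was 1.13 (edgeR adjusted p = 0.000335), it stood less than 1 log2 unit above OG2 MEFs, and its difference was -0.44 on the TPM scale. On the TPM scale the median difference was -0.84 for all genes with a count and -1.54 for those with at least 10 counts. The TPM differences of Keap1 and of the genes below are read against these medians. A negative value above them is not by itself a reversed direction. Protein levels, at which Nfe2l2 and Keap1 are mainly regulated, were not measured.

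Of 5 enzymes of the NRF2 response, 3 were at least 1 log2 unit lower than both MEF samples (60%, against 25.9% of all genes). Aldh3a1 was higher by this threshold, and Nqo1 was called higher by edgeR only. Hmox1, heme oxygenase, had 581 and 530 counts in the MEF samples, OG2 first, and 5 in the ESC-labelled library, or 103, 103 and 3.59 CPM. The MEF samples were alike and the ESC-labelled library lay far below them. Its ratio to the pooled MEF counts was 0.0349 (exact 95% interval 0.0113 to 0.0816, counting error only), the log2 difference was -4.50 and the edgeR adjusted p 2.62e-06. Srxn1, sulfiredoxin, which restores overoxidized peroxiredoxins, had 77.2, 56.5 and 21.5 CPM (log2 difference -1.57, edgeR adjusted p = 0.00195). G6pdx, the enzyme that feeds the NADPH-producing pentose phosphate pathway, had 82.5, 66.2 and 17.2 CPM (log2 difference -2.04, edgeR adjusted p = 0.00023). Nqo1, a quinone reductase often read as a marker of NRF2 activity, was not lower. It had 25.2 CPM in OG2 MEFs and 14.3 in ICR MEFs, against 41.6 in the ESC-labelled library, a log2 difference of 1.09 with an edgeR adjusted p of 0.0117, but it was within 1 log2 unit of OG2 MEFs and its difference on the TPM scale was -0.43.

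Aldh3a1, an aldehyde dehydrogenase known as an abundant protein of the cornea and as an NRF2-responsive gene in other cells, was the extreme of the list. It had 0 counts in OG2 MEFs and 0 in ICR MEFs, against 1845 in the ESC-labelled library, where it reached 1323 CPM (95% interval 1264 to 1385, counting error only). Against the level of 3 counts in ICR MEFs, the higher of the MEF limits, this is at least 2279-fold higher. No 50-base window of its transcripts occurred in a transcript of another gene of GENCODE M21. The squamous and corneal keratins Krt14 and Krt6a had 414 and 28 counts in the same library, while Krt12, a keratin of the corneal epithelium, had 1. The gene's own level was therefore not accompanied by a comparable level of Krt12, and neither relation was tested.

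Of 6 genes of glutathione synthesis and recycling, 4 were at least 1 log2 unit lower than both MEF samples (66.7%, against 25.9% of all genes). By the same threshold 1, Gsr, was higher (16.7%, against 21.9% of all genes), and Gss was called higher by edgeR only. The genes for cystine uptake and for the rate-limiting first step were lower. Slc7a11, the cystine transporter, had 91, 163 and 1 counts, or 16.2, 31.5 and 0.717 CPM. Its single count in the ESC-labelled library gives a ratio of 0.0305 to the pooled MEFs with an exact 95% interval of 0.000769 to 0.171, and the edgeR adjusted p was 0.00168. Gclc, the catalytic subunit of glutamate-cysteine ligase, had 25.0, 22.4 and 5.74 CPM, from 8 counts in the ESC-labelled library (log2 difference -1.87, edgeR adjusted p = 0.00265). Its modifier subunit Gclm had 34.6, 39.1 and 12.9 CPM (log2 difference -1.44, edgeR adjusted p = 0.00294). Both subunits of the ligase thus stood below both MEF samples.

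The genes of the last step of synthesis and of glutathione reduction were called higher. Gss, glutathione synthetase, had 53.1, 48.2 and 96.8 CPM (log2 difference 0.92, edgeR adjusted p = 0.000421), with a difference of -0.61 on the TPM scale. Gsr, which reduces oxidized glutathione, had 28.2 CPM in OG2 MEFs and 34.6 in ICR MEFs, against 184 in the ESC-labelled library. Its log2 difference of 2.52 was the largest rise of this group (edgeR adjusted p = 1.85e-06, ratio 5.89, exact 95% interval 4.99 to 6.95). Glrx, glutaredoxin, which removes glutathione from protein thiols, had 31.4, 31.7 and 12.2 CPM and was lower (log2 difference -1.30, edgeR adjusted p = 0.00604).

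In the thioredoxin system the largest difference was that of its inhibitor. Txnip, which binds and restrains thioredoxin, had 114 CPM in OG2 MEFs and 111 in ICR MEFs, against 10.04 in the ESC-labelled library, from 14 counts. Its log2 difference was -3.36 (edgeR adjusted p = 5.48e-06). Txn1, the cytosolic thioredoxin, had 215, 221 and 347 CPM, and Txn2, the mitochondrial one, had 122, 107 and 242 CPM. Both were called higher, with log2 differences of 0.67 and 1.08 (edgeR adjusted p = 0.00165 and 0.000159). After centring by length the differences were -0.61 for Txn1 and -0.20 for Txn2, against a median of -0.40 for all genes with a count. On the TPM scale Txn1 was at -0.93 and Txn2 at 1.38. The transcript length used for Txn2 differed between libraries, as given further below. Of the reductases that keep them reduced, Txnrd2, the mitochondrial one, had 10.7, 11.6 and 41.6 CPM (log2 difference 1.81, edgeR adjusted p = 0.000178). Txnrd1, the cytosolic reductase and an NRF2 response gene, had 197, 184 and 130 CPM with no call (log2 difference -0.55, edgeR adjusted p = 0.0827).

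Peroxiredoxins reduce hydrogen peroxide with electrons from thioredoxin. Prdx1, the most abundant listed gene of MEFs per length, had 558, 470 and 496 CPM and was the only listed gene whose level in the ESC-labelled library lay between the MEF samples. Prdx4, of the endoplasmic reticulum, had 92.7, 88.6 and 88.2 CPM, also with no call. Prdx2, Prdx5 and Prdx6 were called higher. Prdx2 had 325, 288 and 668 CPM and Prdx5 had 156, 147 and 369 CPM, with log2 differences of 1.12 and 1.28 (edgeR adjusted p = 0.000161 and 5.25e-05). Prdx6 had 207, 173 and 315 CPM, a log2 difference of 0.73 (edgeR adjusted p = 0.00183). On the TPM scale Prdx2 was at 1.14, Prdx5 at -0.62 and Prdx6 at -1.49. Prdx2 was at -0.22 after centring by length, against a median of -0.40 for all genes with a count. Prdx3, a mitochondrial peroxiredoxin, was the exception, with 71.2, 69.1 and 20.1 CPM (log2 difference -1.75, edgeR adjusted p = 0.000213).

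Glutathione peroxidases showed both directions as well. Gpx4, which reduces lipid peroxides within membranes, had 347 CPM in OG2 MEFs and 258 in ICR MEFs, against 1555 in the ESC-labelled library. Gpx1, the main cytosolic form, had 223, 240 and 607 CPM. For both, the ESC-labelled library was above both MEF samples, with log2 differences of 2.37 and 1.39 (edgeR adjusted p = 8.16e-06 and 3.92e-05), but Gpx1 was at -0.63 on the TPM scale. Of the 50-base windows of Gpx4, 34.7% occur in Gpx4-ps2, so the division of reads between these copies is uncertain. Gpx8, which sits in the membrane of the endoplasmic reticulum, had 108, 94.2 and 25.1 CPM and was lower (log2 difference -1.96, edgeR adjusted p = 9.57e-05). The secreted Gpx3, with 36.9, 24.6 and 19.4 CPM, and Gpx7, of the endoplasmic reticulum, with 46.9, 48.8 and 35.1 CPM, had no call.

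The genes that remove superoxide and the peroxide it yields did not move together. Sod1, the cytosolic copper and zinc superoxide dismutase (chromosome 16, 90220754 to 90226329), had 178 CPM in OG2 MEFs and 126 in ICR MEFs, against 1243 in the ESC-labelled library. Its log2 difference was 3.04 (edgeR adjusted p = 2.6e-06, ratio 8.11, exact 95% interval 7.58 to 8.68). Of the 50-base windows of Sod1, 23.1% occur in Gm8566, so the division of reads between these genes is uncertain. Sod2, the mitochondrial form, had 51.5, 43.1 and 83.2 CPM (log2 difference 0.81, edgeR adjusted p = 0.00154), with -0.71 on the TPM scale. The secreted Sod3 had 16.0, 31.0 and 15.8 CPM with no call, so that the level in the ESC-labelled library was next to that of OG2 MEFs. Catalase, the peroxisomal enzyme that splits hydrogen peroxide, was lower, with 75.1, 63.1 and 22.2 CPM for Cat (log2 difference -1.59, edgeR adjusted p = 0.000667).

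Glutathione transferases, which join glutathione to electrophiles, made up the largest group with 11 genes. On the CPM scale 6 were at least 1 log2 unit higher (54.5%, against the 21.9% of all genes) and none lower, with a median log2 difference of 1.99. On the TPM scale 3 were higher (27.3%, against 9.12% of all genes) and 4 lower (36.4%, against 43.2%). The median there was 0.47, against -0.84 for all genes with a count. After centring by length 4 were higher (36.4%, against 18.3% of all genes) and 4 lower (36.4%, against 32.4%). The median was then -0.12, against -0.40 for all genes with a count. That none was lower thus held on the CPM scale only. Gstp1 (chromosome 19, 4035407 to 4037985) had 93.4 CPM in OG2 MEFs and 148 in ICR MEFs, against 1969 in the ESC-labelled library. This was a log2 difference of 4.05 (edgeR adjusted p = 1.47e-06, ratio 16.5, exact 95% interval 15.4 to 17.6). Of the 50-base windows of Gstp1, 62.3% occur in another gene, all of them in Gstp2, so the division of reads between these copies is uncertain. Gstm1 had 22.5, 21.9 and 171 CPM, and the microsomal Mgst3 had 22.2, 23.2 and 142 CPM. The log2 differences were 2.89 and 2.59 (edgeR adjusted p = 6.34e-07 and 1.2e-06), and 19.9% of the windows of Gstm1 are shared. Gsta4, which conjugates the lipid peroxidation product hydroxynonenal, had 12.6, 27.9 and 79.6 CPM (log2 difference 2.02, edgeR adjusted p = 0.000817).

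The other transferases were lower in level or nearer to MEFs. Mgst1, a microsomal transferase, had 26.6, 28.1 and 48.0 CPM (log2 difference 0.79, edgeR adjusted p = 0.00281), but its difference was -0.63 on the TPM scale and -1.32 after centring by length. Gsto1, of the omega class, had 373, 463 and 476 CPM and Gstm5 had 47.0, 37.7 and 35.9 CPM. For Gstm2 the values were 26.3, 29.2 and 15.1 CPM and for Gstt1, of the theta class, they were 4.26, 2.71 and 1.43 CPM. None of these last 4 genes had a call, with edgeR adjusted p-values of 0.13, 0.803, 0.0622 and 0.36. For Gstt1, 2 counts in the ESC-labelled library give a ratio of 0.408 to the pooled MEFs with an exact 95% interval of 0.0477 to 1.58. Gsta1 had 0, 4 and 6 counts and Gsta3 had 0, 2 and 8 counts, too few for the test. Of the windows of Gsta1, 90.5% occur in other genes, so its counts may belong to its near-identical copies.

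Metallothioneins bind zinc and copper and also react with oxidants. Mt1 had 112 CPM in OG2 MEFs and 96.2 in ICR MEFs, against 561 in the ESC-labelled library, and its neighbour Mt2 had 62.3, 84.0 and 648 CPM. Both stood far above both MEF samples. The log2 differences were 2.42 for Mt1 and 3.14 for Mt2 (edgeR adjusted p = 2.16e-06 and 1.36e-06). After centring by length they were 0.31 and 1.03, and Mt1 was at -0.29 after centring by GC content and length. Another gene's transcripts hold 45.5% of the windows of Mt2 and none of those of Mt1.

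**Figure D2:**
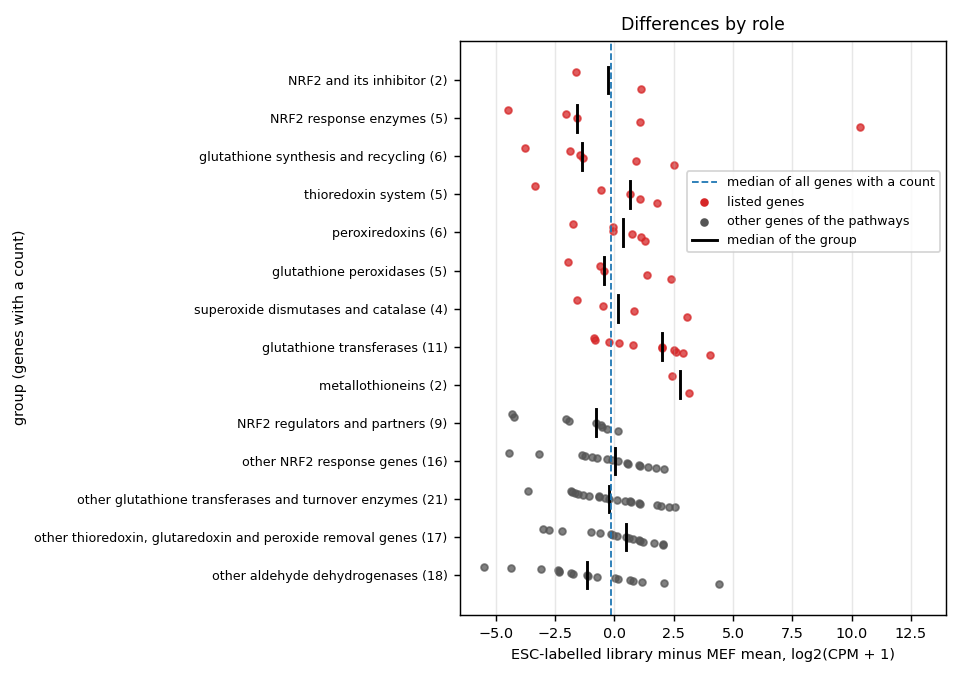
Difference of each gene, as ESC-labelled library minus MEF mean, on the log2(CPM + 1) scale, x axis, grouped by role on the y axis with the number of genes with a count in parentheses. Black bars are group medians and the dashed line is the median of all genes with a count, -0.13. The glutathione transferases (median 1.99) and metallothioneins lie to the right, and the NRF2 response enzymes (median -1.57) and glutathione synthesis genes (median -1.37) to the left, each with genes on the other side except the metallothioneins. After centring by length the medians were -0.12 for the transferases, 0.67 for the metallothioneins, -1.54 for the response enzymes and -1.50 for the synthesis genes. That of all genes with a count was then -0.40.

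Other genes of the same pathways, listed by name and not by their values, numbered 85, of which 81 had a count. By the same threshold 14 of these were higher (17.3%, against the 21.9% of all genes) and 28 lower (34.6%, against 25.9%), with a median of -0.33. Among 9 regulators and partners of NRF2, none was higher and 4 were lower (44.4%). Maff, a small MAF partner of NRF2, had 17.6, 20.3 and 0 CPM, and Bach1, a repressor that competes with NRF2, had 49.3, 69.1 and 2.15 CPM. Nfe2l1, a relative of NRF2, had 381, 379 and 91.8 CPM. These 3 were named because their differences were the largest of the 9, and they are not typical of the group. The other small MAF genes, Mafg and Mafk, were within 1 log2 unit of both MEF samples, with log2 differences of -0.76 and -0.33. Of 16 other NRF2 response genes, 3 were higher (18.8%) and 4 lower (25%). They included Taldo1, a pentose phosphate enzyme, at 132, 108 and 521 CPM, Abcc1, an exporter of glutathione conjugates, at 144, 122 and 13.6 CPM, and Ugdh, which makes UDP-glucuronate, at 189, 164 and 7.17 CPM.

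Of 21 other glutathione transferases and turnover enzymes with a count, 5 were higher (23.8%) and 7 lower (33.3%). Chac1, which breaks glutathione down and is a known target of ATF4, had 27.3, 31.7 and 1.43 CPM, while Ggct had 2.31, 3.10 and 20.8 CPM and Gstk1 had 2.66, 2.13 and 15.8 CPM. Slc7a11, also a known target of ATF4, was lower too, from 1 count in the ESC-labelled library. Targets of ATF4 were not followed as a set, and the part of ATF4 was not tested. Of 17 other thioredoxin, glutaredoxin and peroxide removal genes, 4 were higher (23.5%) and 3 lower (17.6%). The 3 with the largest differences were all lower, namely the methionine sulfoxide reductase Msrb3 (146, 185 and 19.4 CPM) and the sestrins Sesn3 (25.7, 24.6 and 2.87 CPM) and Sesn2 (85.0, 92.5 and 18.6 CPM). Of 18 other aldehyde dehydrogenases, 2 were higher (11.1%) and 10 lower (55.6%), so that the level of Aldh3a1 was not that of its family. Aldh3a2, its closest neighbour by name, had 49.0, 49.1 and 1.43 CPM and the mitochondrial folate enzyme Aldh1l2 had 133, 153 and 2.15 CPM. Aldh1a3, which makes retinoic acid, had 1.77, 2.13 and 62.4 CPM.

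Between the MEF samples the listed genes differed little. A single gene was at least 1 log2 unit apart, Gsta4, with 71 counts in OG2 MEFs and 144 in ICR MEFs (log2 difference OG2 minus ICR -1.09, ratio of ICR to OG2 2.21, exact 95% interval 1.65 to 2.98 for counting error). No listed gene was that much higher in OG2 MEFs (0.955% of all genes were), and 1 was in ICR MEFs (1.81% of all genes). Slc7a11 and Sod3 followed with differences of -0.92 and -0.91, both higher in ICR MEFs. Nqo1 had the largest difference in the other direction, 0.77 higher in OG2 MEFs, and Gstp1 was 0.66 lower there. Hmox1, Glrx and Txnip were nearly equal, with differences of 0.01, -0.01 and 0.03. The SD of the difference was 0.40 over the listed genes and 0.41 over all genes with a count. The strains cannot be compared by a test with 1 library each. Macrophage markers summed to 66.7 CPM in OG2 MEFs and 36.6 in ICR MEFs, and their part in these differences was not tested.

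**Figure D3:**
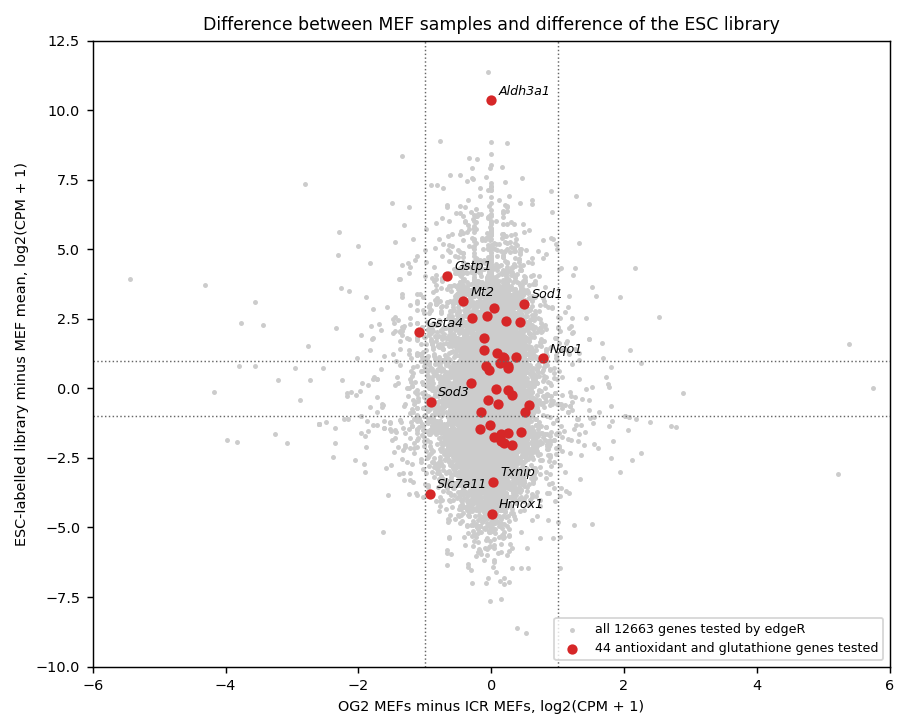
Difference between OG2 and ICR MEFs on the x axis against the ESC-labelled library minus the MEF mean on the y axis, both on the log2(CPM + 1) scale, for the 44 listed genes tested by edgeR (red) over all 12663 tested genes (grey). Dotted lines mark 1 log2 unit in each direction. Gsta4 alone passes the line on the x axis, while the listed genes spread from -4.50 (Hmox1) to 10.37 (Aldh3a1) on the y axis. The axes share the MEF values.

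Levels can be set against each other between genes only per length, and the deposited TPM values were used for this. In OG2 MEFs the highest TPM of the list was that of Prdx1, 1122, followed by Gpx4 at 921, Sod1 at 763, Gsto1 at 744 and Gpx1 at 673. In ICR MEFs Prdx1 (1061) was followed by Gsto1 at 984, Gpx1 at 761 and Gpx4 at 752. The same few genes thus led both MEF samples, and the places after Prdx1 changed between the samples. In the ESC-labelled library the order was Gstp1 at 2273 TPM, Sod1 at 1752, Gpx4 at 1492, Mt2 at 1111, Prdx2 at 1104, Mt1 at 1003 and Aldh3a1 at 594. Prdx1 was at 169 TPM there. RSEM set the transcript-weighted length of Prdx1 in that library to 1.94 times its MEF mean, a change of isoform weights that enters its TPM. Such length ratios passed 1.5-fold in either direction for 6 listed genes, with 0.352 for Txn2, 0.373 for Txnip, 0.397 for Prdx2 and 2.77 for Gclm besides Prdx1 and Prdx6. Between OG2 and ICR MEFs none did.

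The balance of higher and lower genes depended on the scale. On the TPM scale 8 listed genes were at least 1 log2 unit higher (17.4%, against 9.12% of all genes) and 23 were lower (50%, against 43.2%), and the median difference of the list was -1.16. TPM moved the median of all genes with at least 10 counts by -1.11 log2 units, so these differences are read relative to that shift. After centring over 20 bins of transcript length, 8 were higher (17.4%, against 18.3% of all genes) and 18 lower (39.1%, against 32.4%). After centring by GC content first and by length next, 7 were higher (15.2%, against 17.7%) and 14 lower (30.4%, against 31.5%). With centring by length, alone or after GC content, the share of higher genes in the list was thus under that of all genes. On the TPM scale, which is also per length, it was above that of all genes.

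The higher genes had shorter transcripts. Their median length was 988 bases, against 2503 for the lower genes and 1391 for the rest, and across the 46 genes Spearman's rho between log2 difference and length was -0.52, as a description of genes that share the same libraries. Aldh3a1, Gstm1 and Gstp1 were higher on each of these scales and under each setting of the pseudocount, the size factors and the count minimum. The 10 genes Hmox1, Srxn1, G6pdx, Gclc, Slc7a11, Glrx, Txnip, Prdx3, Gpx8 and Cat were lower on each. Nfe2l2 and Gclm were lower by the threshold except after centring over GC content and length, where their differences were both -0.96. Sod1 kept a positive difference, from 0.93 to 3.24, and so did Gpx4, from 0.31 to 2.57. Of the genes higher by the threshold, Gpx1, Prdx5, Mt1, Prdx2 and Gsta1 changed sign on at least 1 scale. Gsr stayed at 0.92 or above on all 5 scales shown.

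**Figure D4:**
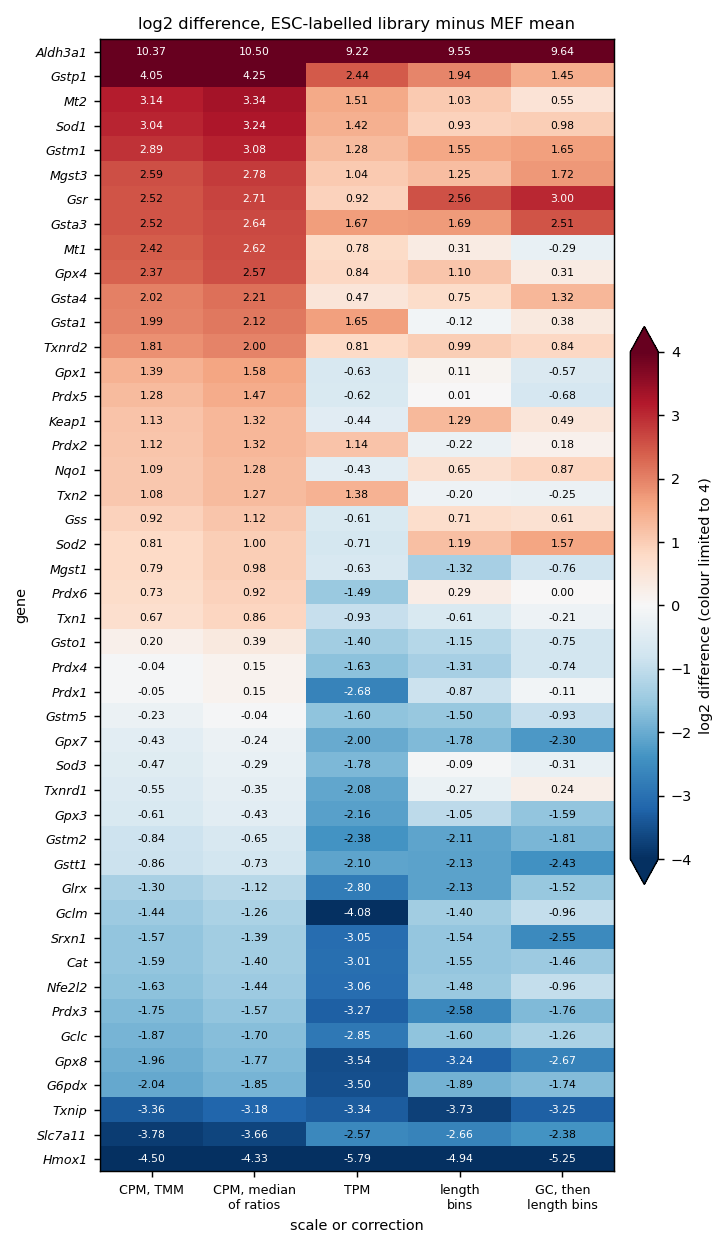
Log2 difference of the ESC-labelled library from the MEF mean for each listed gene (rows, ordered by the first column) on 5 scales (columns), with the value in each cell and colour from blue (lower) to red (higher), limited to 4 log2 units. Many of the upper rows grow pale or turn blue in the columns for TPM and for length. Aldh3a1 stays beyond the colour limit in all columns, and Gsr is at 2.56 after centring by length. The bottom 12 rows, the genes counted as lower on the first scale, remain blue.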

How the data were processed

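RNA-seq libraries of OG2 MEFs, ICR MEFs and R1 ESCs, grouped as 2 MEF samples and 1 ESC sample, were analysed. By the study's methods, reads were quantified with RSEM after bowtie2 alignment to a transcriptome index from Ensembl. The submitters' processing notes name mm10, and because the paper and these notes differ in the annotation they imply, the release behind the tables is unsure. The deposited tables hold expected counts (reads per gene, estimated and not always whole) and TPM, which the authors' RSEM run scaled by transcript length. FPKM was not used. The GC-content normalization that the methods name was taken to come after these files. The depth was 1717798 to 5149297 counts, and exact intervals at 95% hold the error of counting alone, because PCR copies were not told apart by molecular identifiers.

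Expected counts were rounded, scaled by TMM in edgeR 4.0.16 (R 4.3.3) and given as log2(CPM + 1), which understates the change of low genes. Following the threshold of the study, a gene was counted where it lay 1 log2 unit or more from both MEF samples. The quasi-likelihood test of edgeR was run over all genes that passed its low-count filter, adjusted by the Benjamini-Hochberg method. It was also run on simulated counts with the same spread in all libraries. That run cannot show how the test behaves with the unknown spread of the ESC-labelled library. Alternatives were pseudocounts of 0.1 and 5, size factors by median of ratios, TPM, a minimum of 10 counts in 1 library, centring over 20 bins of length or of GC content and length, each MEF sample left out, no low-count filter, and DESeq2 1.42.0. Identifiers were matched to GENCODE M21 on GRCm38 (98.3% with a symbol), whose transcripts were searched for exact 50-base windows shared between genes. Promoters were taken from RefSeq. Other values were computed with Python 3.11.15, pandas 2.3.3 and scipy 1.17.1.

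All listed genes were named, with up to 3 genes of each further pathway list, those with the largest differences from both MEF samples among genes with at least 10 counts. Mafg and Mafk were named besides, as the other small MAF genes. The genes and lists were chosen with earlier results of these data known.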

Additional observations from a re-analysis of the deposited data

How the results depend on the processing

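The 16 higher and 12 lower listed genes became 8 and 23 with TPM. Centring over length gave 8 and 18, and centring over GC content and length gave 7 and 14. Under the alternatives of pseudocount, size factors and count minimum the higher genes numbered 14 to 19, and the lower genes stayed at 12. A single listed gene lay 1 log2 unit apart in the MEF pair, where a pseudocount of 0.1 gave 3, a pseudocount of 5 gave 0 and TPM gave 2. DESeq2, whose size factors and filter also differ, called 2911 genes lower over the whole table where edgeR called 4563, and 20 higher and 9 lower among the listed genes where edgeR called 22 and 12. The log2 difference became -0.63 for Gpx1 and -0.62 for Prdx5 with TPM. With centring over length it became -0.22 for Prdx2 and -0.12 for Gsta1. With centring over GC content and length it became -0.68 for Prdx5, -0.57 for Gpx1 and -0.29 for Mt1. Of 320 single values under alternatives that kept both MEF samples, 26 changed sign. The cause was not tested.

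Without each MEF sample in turn, 16 to 19 listed genes were higher and 12 to 13 lower. With a MEF sample left out, edgeR was not run, because this would leave no residual degree of freedom. No paired analysis was possible because a single library stands against the MEF pair. The depth of the ESC-labelled library limits the low genes, since 3 counts there equal 2.15 CPM, and Slc7a11 and Gstt1 lay under that level.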
